A study of Mus musculus with 6 samples.

Results

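Ceramide turnover was examined through 10 genes: the alkaline ceramidases Acer1, Acer2 and Acer3, the acid ceramidase Asah1, the sphingomyelinases Smpd1 and Smpd2, the ceramide synthases Cers2, Cers5 and Cers6, and the sphingosine kinase Sphk1. The genes were chosen by earlier results of these same XX and XY arrays, in which Acer1 was among the largest differences toward XY. Their differences between XX and XY are therefore given as descriptions. Where a member is said to be past or not past limma's adjusted p, this too is a description and no independent support. They had 18 probe sets, of 45037 on the array outside the controls, and stand among 18193 genes with a probe set of 1 symbol. No probe set joined a member with another gene (0 of 18), and 6 of the 10 genes had over 1 probe set.

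Ceramide is the hub of sphingolipid metabolism. Ceramide synthases build it by joining a fatty acid to a sphingoid base, sphingomyelinases release it from sphingomyelin of membranes, and ceramidases split it into sphingosine, which sphingosine kinases turn into sphingosine-1-phosphate. In the ovary, ceramide is known as a signal for oocyte death and sphingosine-1-phosphate as a signal for oocyte survival.

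The samples were oocytes at the germinal vesicle (GV) stage, fully grown and still arrested before the first meiotic division, from XX females and from their XY littermates in the B6.Y(TIR) strain, whose Y chromosome lets XY mice develop as females. Both groups were treated alike: at 25 to 29 days of age the females received 5 IU of equine chorionic gonadotropin, and 45 to 47 hours later oocytes were freed of cumulus cells. Each of 3 XX and 3 XY samples was RNA of 10 oocytes, amplified in 2 labelling cycles from oligo(dT) primers and put on a 3' expression array. Each array averages 10 oocytes, so fewer oocytes with a transcript and less transcript per oocyte cannot be told apart. XY animals differ from XX ones both by having a Y and by having 1 X, and these arrays do not separate the 2.

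Y-linked Uba1y served as a check of the labels, and its brighter probe set had deposited intensities of 5.91 to 26.8 in XX and 3565 to 4632 in XY. All 12 of the oocyte markers lay at or above the array median on every array, led by Gdf9, Zp3 and Zp2; their summed intensity was 89181 to 111820 in XX and 68088 to 91091 in XY, and 1 of them, Bmp15, was past the adjusted p, lower in XY (954 to 2551 against 431 to 648). Of 12 granulosa and cumulus markers measured, 5 lay at or above the median on every array and 3, Amh among them, below it on every array. Their summed intensity was 1258 to 1529 in XX and 1230 to 1688 in XY. Its largest part came from Nr5a2, at 762 to 1110 in XX and 552 to 810 in XY with the brightest probe set. The sum therefore says little about the dimmer markers. Inha, a granulosa gene, had intensities of 38.1 to 114 in XX and 154 to 269.7 in XY. The sum of 7 theca and stroma markers, led by Dcn (20.1 to 90.1 in XX and 135 to 320.1 in XY), was 144 to 162 in XX and 283 to 446 in XY, with 4 of the 7, Cyp17a1 among them, below the median on every array. That of 7 blood and endothelial markers was 126 to 223 and 201 to 260. Past the adjusted p and higher in XY were 1 of 8 granulosa and cumulus markers tested and 1 of 3 blood and endothelial markers tested. In these lists 0 were lower, and 0 of 3 theca and stroma markers tested were past it. Over all genes tested, 7.86% were past it and higher in XY. The part of granulosa, stromal or blood cells in the differences below was not tested. XX 1 stood apart from XX 2 and XX 3: on the first principal component it was at -14.0, against -41.3 and -43.2 for these and 28.3 to 37.2 for XY. The Actb control's 3' signal over its 5' signal, as a log2 ratio, which rises as RNA shortens or amplification stays near the 3' end, was 5.53 in XX 1, 3.866 in XX 2 and 3.996 in XX 3, while XY 1 stood at 5.90, XY 2 at 5.196 and XY 3 at 5.61. The XY mean exceeded the XX mean by 1.10, 5.57 ± 0.35 against 4.46 ± 0.93 (SD, 3 arrays each, two-sided exact permutation p = 0.2, where 3 against 3 cannot go below 0.1).

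Levels below are log2(quantile-normalized intensity + 9), called the log2 level, and differences are XY minus XX on that scale, with limma's standard error (SE). The addition of 9 keeps values near 0 finite and shrinks the difference of dim probe sets. A probe set passed the filter when it was no dimmer than the array median in 3 or more of the 6 samples; 11 of the 18 did, covering 9 genes, all but Sphk1. Where 3 values of a group are given, they are those of replicates 1, 2 and 3 in that order, and equal numbers were not treated as pairs of XX and XY. Levels of different probe sets cannot be compared with each other, since each has its own affinity.

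Acer1, the alkaline ceramidase of the endoplasmic reticulum known chiefly from the epidermis, differed most. Its probe set 1439183_at had deposited intensities of 3.62, 0.762 and 2.50 in XX oocytes and 106, 58.2 and 65.6 in XY oocytes. All 3 XX values were far below the array medians of 24.5 to 28.8 and all 3 XY values above the XY medians of 29.2 to 31.4, so the groups did not overlap. The log2 level averaged 3.52 ± 0.22 in XX and 6.37 ± 0.32 in XY oocytes (SD, n = 3 each), a difference of 2.85 ± 0.24 (SE). The probe set passed the filter through its XY arrays alone (0 of 3 XX arrays), and a gene that passes in this way had to differ. In size the difference hung on the pseudocount, at 4.53 with 1 and 1.62 with 32 in place of 9, since XX lay at the floor. XX 1 had an Acer1 log2 level of 3.72, beside 3.29 and 3.55 in the other XX arrays and 6.11 to 6.73 in XY. With the Actb ratio as a covariate the difference was 2.55, and the part of RNA quality in it was not tested. Without XX 1 the difference was 2.99.

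The other Acer1 probe set did not show the difference. Probe set 1450825_at, which the annotation ties to the RefSeq transcript NM_175731, had intensities of 3.62, 7.52 and 1.34 in XX and of 4.03, 4.89 and 8.80 in XY, all below the array medians. Its log2 difference was 0.11 ± 0.25 (SE), with overlapping groups. Probe set 1439183_at is tied to the expressed sequence tag AI662009, a name that the RefSeq gene table lists as a synonym of Acer1. The XY signal of Acer1 thus rests on 1 of its 2 probe sets, and which part of the transcript each covers was not analysed here.

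The promoter windows of Acer1 and Smpd2, the members with the largest differences toward XY, show what sequence lies before the starts of these genes. Each is the 250 bases before the annotated start, 5' to 3' on the gene's strand, from RefSeq on assembly GRCm38.p6. Capitals mark matches on either strand to the core promoter element TATAAA, the nuclear factor Y element CCAAT, the Sp-family box GGGCGG or the E-box CACGTG. The Acer1 window is chr17:56982127-56982376 on the minus strand and the Smpd2 window chr10:41490341-41490590, also on the minus strand.
Acer1: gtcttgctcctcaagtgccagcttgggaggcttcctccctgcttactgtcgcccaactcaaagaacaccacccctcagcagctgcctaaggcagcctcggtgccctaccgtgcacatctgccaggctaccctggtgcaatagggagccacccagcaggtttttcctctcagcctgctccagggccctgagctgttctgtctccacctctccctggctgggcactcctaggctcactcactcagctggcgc
Smpd2: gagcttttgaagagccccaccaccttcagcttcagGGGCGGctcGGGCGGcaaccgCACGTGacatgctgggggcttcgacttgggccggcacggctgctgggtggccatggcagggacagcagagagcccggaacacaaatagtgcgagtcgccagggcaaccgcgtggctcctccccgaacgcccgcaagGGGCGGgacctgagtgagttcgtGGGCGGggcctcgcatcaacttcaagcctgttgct

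The Acer1 window, with a GC content of 61.6%, held none of the 4 motifs, and that of Smpd2 (66.4%) held 4 matches of GGGCGG and 1 E-box. Over all 32851 windows of this length, 32.7% held GGGCGG, 6.02% an E-box, 33.8% the nuclear factor Y element and 12.4% the core promoter element. Windows were found for 9 of the 10 members, 15 in all, of which 6 held GGGCGG, 5 an E-box, 5 the nuclear factor Y element and 1 the core promoter element. Several windows of a gene can overlap, and a match of letters is not a binding site. Overlapping windows of Sphk1 shared 1 E-box and 1 nuclear factor Y element, so these counts hold repeats and cannot be set directly against the shares over all windows.

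**Figure D1:**
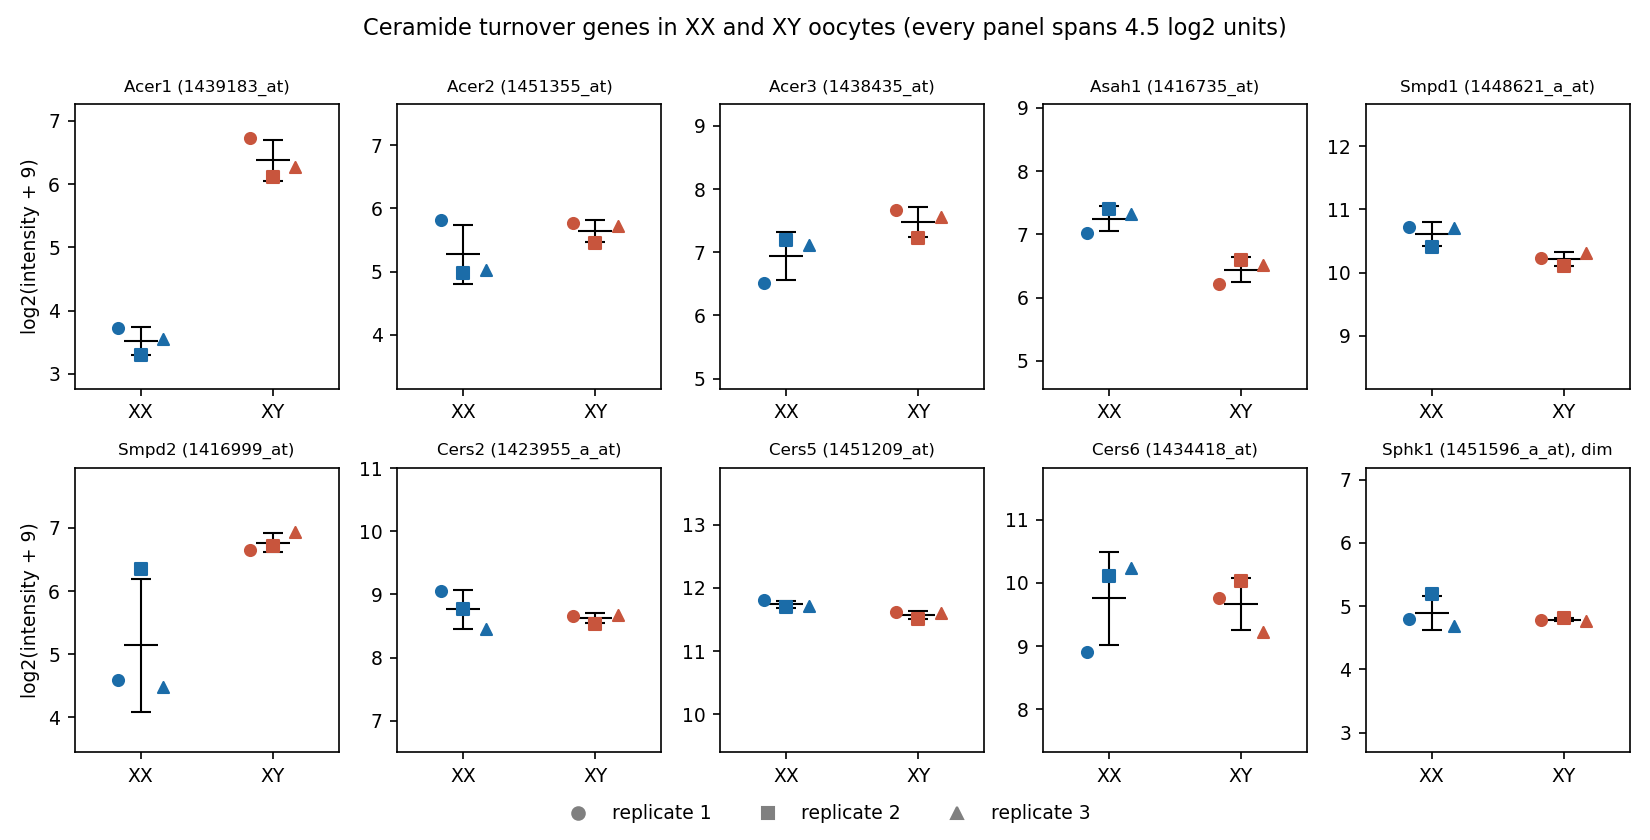
Log2 level, log2(quantile-normalized intensity + 9), of each gene's brightest probe set on 3 XX and 3 XY arrays, with the mean and SD in black and marker shapes for the replicate number; dim means that no probe set passed the filter. Acer1 stands at 3.29 to 3.72 in XX and 6.11 to 6.73 in XY, Asah1 is lower on every XY array, and Smpd2 has 1 XX array, XX 2, near the XY values.

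Acer2, the alkaline ceramidase of the Golgi, was dim. Its probe set 1451355_at had log2 levels of 5.81, 4.98 and 5.03 in XX and of 5.76, 5.45 and 5.72 in XY. XX 1 was the highest of the 6 arrays, and the groups overlapped. The difference of 0.37 ± 0.27 (SE) was 0.65 without XX 1 and -0.18 with the Actb ratio as a covariate. The other probe set, 1421496_at, did not pass the filter and had a difference of -0.05 ± 0.19.

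Acer3, an alkaline ceramidase of the endoplasmic reticulum and Golgi that prefers unsaturated long-chain ceramides, had 4 probe sets. The brightest, 1438435_at, had log2 levels of 6.51, 7.20 and 7.11 in XX and of 7.67, 7.22 and 7.55 in XY, a difference of 0.54 ± 0.25 (SE). XY 2 lay just above XX 2, so the groups did not overlap on this scale, but they did in the deposited intensities, at 68.0 to 159 in XX and 119 to 208 in XY. A further probe set past the filter, 1429520_a_at, differed by 0.60 ± 0.31 with overlapping groups. The 2 that did not pass differed by 0.39 ± 0.39 (1459771_x_at) and -0.62 ± 0.38 (1453179_at), and the latter thus had the opposite sign. XX 1 was the lowest array in both probe sets past the filter, and without it the differences were 0.33 and 0.36.

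Asah1, the acid ceramidase of the lysosome, known to be needed for survival of the early mouse embryo, went the opposite way from Acer1. Its probe set 1416735_at had intensities of 99.96, 179 and 188 in XX and of 72.1, 79.6 and 77.3 in XY. All 3 XY arrays were below all 3 XX arrays. The log2 level averaged 7.25 ± 0.20 in XX and 6.44 ± 0.19 in XY oocytes (SD, n = 3 each), a difference of -0.81 ± 0.20 (SE). XX 1, with an Asah1 log2 level of 7.02, was the lowest XX array, and without it the difference was -0.92. With the Actb ratio as a covariate the difference was -0.53.

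**Figure D2:**
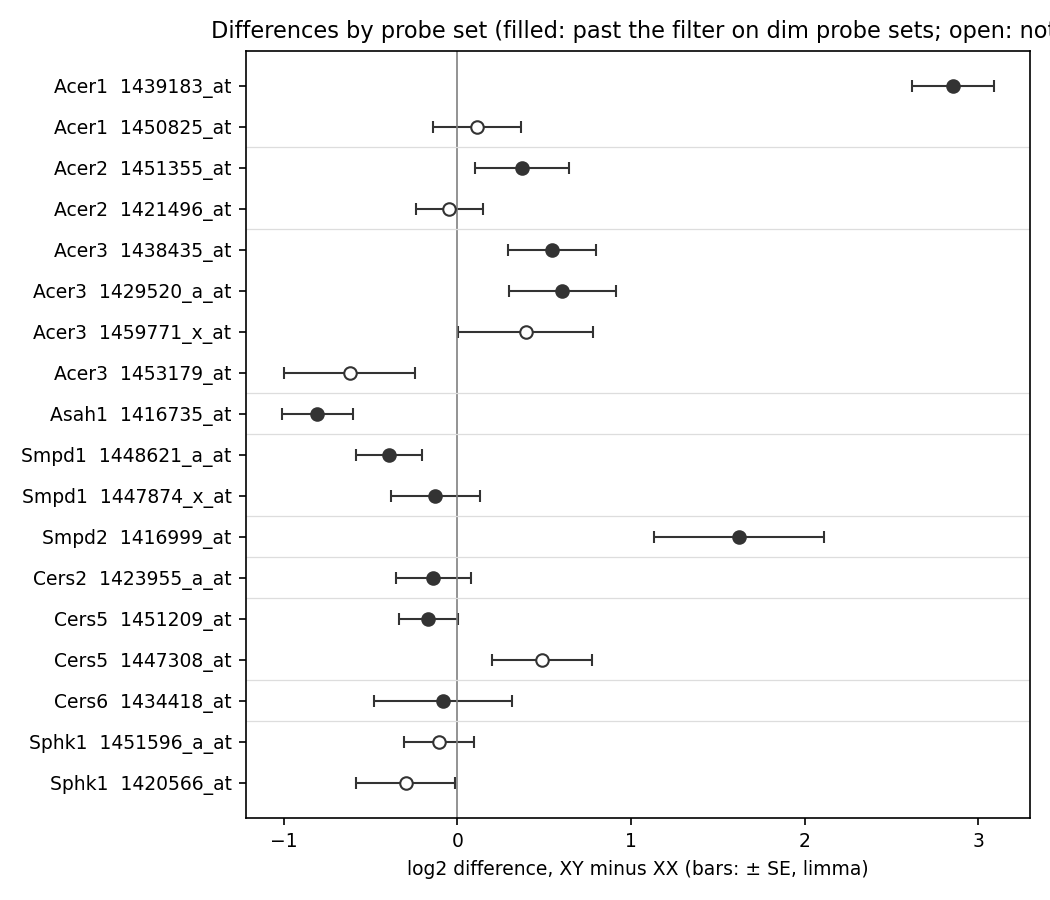
Log2 difference, XY minus XX, with its SE for all 18 probe sets of the 10 genes, filled where the probe set passed the filter on dim signals. The probe sets of Acer1 stand at 2.85 and 0.11, and those of Acer3 spread from -0.62 to 0.60.

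Of the sphingomyelinases, Smpd1 had lower and Smpd2 higher values in XY, and neither was past the adjusted p of 0.05 in limma's fit. Smpd1, the acid sphingomyelinase of the lysosome, whose loss is known to enlarge the oocyte reserve of mice, had log2 levels of 10.72, 10.40 and 10.72 in XX and of 10.23, 10.11 and 10.31 in XY with its brighter probe set, 1448621_a_at. Every XY array was below every XX array, with a difference of -0.40 ± 0.19 (SE). The dimmer probe set, 1447874_x_at, had a difference of -0.13 ± 0.26 and overlapping groups.

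Smpd2, a neutral sphingomyelinase of the endoplasmic reticulum, was the member with the widest spread among XX arrays. Its intensities were 13.1, 77.1 and 12.9 in XX oocytes, and 99.1, 86.7 and 103 in XY oocytes. XX 2 lay close to the XY arrays while XX 1 and XX 3 were below the array median, and the groups did not overlap. The log2 level averaged 5.14 ± 1.05 in XX and 6.76 ± 0.15 in XY oocytes (SD, n = 3 each), a difference of 1.62 ± 0.49 (SE). It was 2.20 without XX 2 and 1.26 without XX 3. With the Actb ratio as a covariate the difference was 2.19, and the source of the spread among XX arrays was not tested.

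The ceramide synthases showed smaller differences. Cers2, which makes very-long-chain ceramides, had log2 levels of 9.06, 8.77 and 8.45 in XX and of 8.66, 8.53 and 8.68 in XY. The XX range enclosed the XY range, and the difference was -0.14 ± 0.21 (SE), or 0.01 without XX 1. In the deposited intensities the groups did not overlap, at 424 to 501 in XX and 282 to 419 in XY. Cers5, which makes ceramides with a palmitoyl chain, had log2 levels of 11.81, 11.70 and 11.71 in XX and of 11.61, 11.50 and 11.60 in XY with probe set 1451209_at. These did not overlap, yet the difference was only -0.17 ± 0.17 (SE), and the deposited intensities of 3101 to 4517 and 2154 to 3291 did overlap. The second Cers5 probe set, 1447308_at, did not pass the filter (0.49 ± 0.29).

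Cers6, which like Cers5 prefers a palmitoyl chain, varied more within groups than between them. Its log2 levels were 8.91, 10.12 and 10.24 in XX oocytes, and 9.77, 10.02 and 9.22 in XY oocytes. XX 1 was the lowest array and XX 3 the highest, so the difference of -0.08 ± 0.40 (SE) was -0.50 without XX 1, 0.10 without XX 2 and 0.15 without XX 3. With the Actb ratio as a covariate it was 0.73.

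Sphk1, which phosphorylates sphingosine, was below the median on every array with both of its probe sets and was not tested. The brighter, 1451596_a_at, had intensities of 16.2, 27.3 and 16.4 in XX and of 20.2, 20.9 and 18.3 in XY. The XX range enclosed the XY range, and the difference was -0.11 ± 0.20 (SE), against -0.30 ± 0.29 for the other, 1420566_at. The groups overlapped with both probe sets.

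Across all 12442 genes tested by limma, 1643 (13.2%) were past an adjusted p of 0.05, 978 (7.86%) higher in XY and 665 (5.34%) lower. Of the 9 members tested, Acer1 was past it in the upward and Asah1 in the downward direction, and 7 were not past it. The groups did not overlap for 6 of these 9 genes and for 38.8% of all genes. Both member counts are descriptions, since this contrast chose the genes, and the filter had kept Acer1 through its XY arrays. Leaving out XX 1 took the count over all genes to 3307, and leaving out any other array took it to between 472 (XY 2) and 661 (XX 3). The split of all calls depended on scaling, with 59.5% of them higher in XY after quantile normalization, 47.2% with the deposited values, 22.9% with median scaling and 70.8% with trimmed mean scaling. The median difference of all genes was 0.07, -0.12, -0.27 and 0.18 under these.

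Relative to that median, the differences of Acer1, Acer3, Asah1 and Smpd2 moved little with scaling in proportion to their size. Those of the other 6 members moved more in proportion, though not in log2 units, where Acer1 moved more than Cers2 or Cers6. Acer1 stood at 2.79, 3.01, 3.07 and 2.88 above it after quantile normalization, with the deposited values, with median scaling and with trimmed mean scaling. Asah1 stood at -0.88, -0.78, -0.78 and -0.79, and Smpd2 at 1.55, 1.72, 1.75 and 1.68. Acer3 stood at 0.47, 0.50, 0.50 and 0.50. Every member but Sphk1 kept its sign under all 4 scalings. Smpd1 stood at -0.47, -0.65, -0.66 and -0.64, with the same sign throughout. Acer2 went from 0.30 to 0.63, 0.65 and 0.56, Cers5 from -0.24 to -0.42, -0.44 and -0.41, and Cers6 from -0.15 to -0.32, -0.33 and -0.30, so the small differences of these genes were about as large as what a change of scaling added. Cers2 went from -0.21 to between -0.32 and -0.30. Sphk1 changed sign, at -0.18, 0.13, 0.18 and 0.05.

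**Figure D3:**
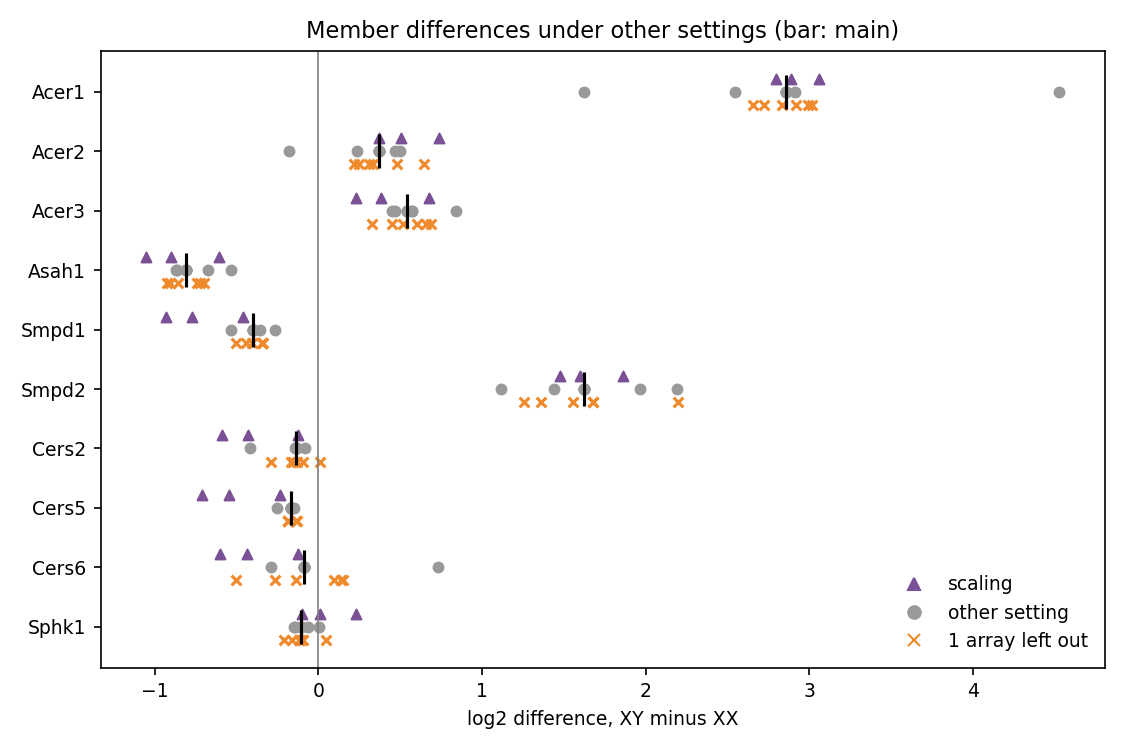
Log2 difference, XY minus XX, of each member under other settings: scalings, other choices of pseudocount, filter or model, and leaving out 1 array, with a black bar for the main value. Acer1 stays between 1.62 and 4.53, Smpd2 between 1.12 and 2.20 and Asah1 between -1.05 and -0.53, while Acer2, Cers2, Cers6 and Sphk1 have values on both sides of 0.

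The genes whose log2 levels over the 6 arrays, each centred on its mean, lay nearest to those of Acer1 by Euclidean distance were Afp, the gene of the fetal plasma protein alpha-fetoprotein, at 0.45, Muc15, a membrane mucin gene, at 0.59, Specc1 at 0.73, the forebrain transcription factor gene Fezf2 at 0.75, and the heparanase gene Hpse at 0.77. Their differences were 2.82, 2.65, 2.71, 2.67 and 2.27. With 6 arrays in 2 groups, this measure mainly finds genes with an equally large difference.

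The remaining sphingolipid genes were taken from 4 lists of textbook pathway members. Of 63 genes listed, 58 had a probe set and 45 were tested; 5 were higher and 3 lower in XY oocytes past the adjusted p, 17.8% against 13.2% of all genes, and 37 did not pass. Of the 5, Sgpp1 was the 1 gene that passed the filter through its XY arrays alone, so that, like Acer1, it had to differ. The split depended on scaling: the deposited values gave 3 higher and 3 lower genes, median scaling gave 3 higher against 8 lower, and trimmed mean scaling gave 8 higher against 2 lower. Their median difference was 0.05, against 0.07 for all genes. The count of 8 was 9 without XX 1, 4 without XX 2 or XX 3, 3 without XY 1 or XY 2, and 2 without XY 3.

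Among 9 tested genes of ceramide synthesis from serine, 1 rose and 0 fell, with a median of 0.07; none (0) passed with the deposited values or median scaling. Ormdl1, whose protein restrains serine palmitoyltransferase at the start of the pathway, had log2 levels of 10.08, 9.86 and 9.59 in XX and of 11.05, 10.67 and 10.95 in XY. All XY arrays were above all XX arrays, and the difference was 1.04 ± 0.19 (SE, limma's adjusted p = 0.0167). Sptlc2, a catalytic subunit of that enzyme, had a difference of 0.62 ± 0.20 (adjusted p = 0.0750). Ormdl1 did not pass with the deposited values (0.68, adjusted p = 0.166) or median scaling (0.52, 0.182), with the Actb covariate (0.109), or without XX 2 (0.0542), XY 1 (0.0581) or XY 3 (0.0589).

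Of 15 tested genes that move ceramide or turn it into complex sphingolipids, 3 rose and 1 fell, with a median of -0.02. With median scaling the direction turned, with St8sia1 alone higher and Ugcg, B4galt5, B4galt6, Cert1 and Sgms1 lower, 1 against 5; with the deposited values it was 1 against 2, and with trimmed mean scaling 3 against 1. Ugcg, glucosylceramide synthase, which makes the first glycosphingolipid from ceramide, had log2 levels of 7.25, 6.86 and 7.22 in XX and of 5.45, 5.44 and 5.95 in XY. It fell on every XY array relative to every XX array, by 1.49 ± 0.20 (SE, adjusted p = 0.00833), and missed the threshold only with the Actb covariate among the alternatives (-1.65, adjusted p = 0.0526). Ugcg had 2 other probe sets past the filter, both of the same sign, and the mean over its probe sets differed by -0.91. Ugt8a, which makes galactosylceramide from the same substrate, rose from 8.77 ± 0.28 to 9.61 ± 0.09 (SD, n = 3 each, adjusted p = 0.0284). The 2 enzymes that put a first sugar on ceramide thus differed in opposite directions.

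Cptp, a transfer protein for ceramide-1-phosphate, rose by 0.80 ± 0.15 (SE, adjusted p = 0.0193), with XX between 8.18 and 8.40 and XY between 8.98 and 9.24. St8sia1, which makes the ganglioside GD3 and so acts far downstream of Ugcg, rose by 1.70 ± 0.35 (adjusted p = 0.0245), from 7.33, 6.36 and 6.03 in XX to 8.13, 8.67 and 8.01 in XY. XX 1 was the XX array nearest to XY, and without it the difference was 2.09. Ugt8a and Cptp did not pass with the deposited values (adjusted p = 0.349 and 0.328) or with median scaling (0.390 and 0.374). Without 1 array, Ugt8a missed in 5 of 6 fits (0.0566 to 0.0932, all but that without XX 1) and Cptp in 3, without XX 2 (0.0542), XY 2 (0.0717) or XY 3 (0.0726). St8sia1 missed in 5 of 6 (0.0542 to 0.0809, all but that without XX 1). With the Actb covariate Cptp (0.0627) and St8sia1 (1.15, adjusted p = 0.186) missed and Ugt8a passed (0.0459).

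Of 10 tested genes of sphingomyelin and glycosphingolipid breakdown, 0 rose and 1 fell, with a median of 0.06; with trimmed mean scaling 1 was higher and 0 lower, and with the deposited values 0 passed. Smpd4, a neutral sphingomyelinase, fell by 0.70 ± 0.18 (SE, adjusted p = 0.0423), with log2 levels of 8.35, 7.97 and 8.41 in XX and of 7.54, 7.41 and 7.68 in XY. The neutral sphingomyelinases Smpd4 and Smpd2 thus had differences of opposite sign, -0.70 and 1.62. Gm2a, the activator protein for ganglioside breakdown, had a difference of 0.77 ± 0.23 (adjusted p = 0.0656). Smpd4 passed in 8 of 18 alternatives, with adjusted p from 0.0188 to 0.134.

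Of 11 tested genes of sphingosine-1-phosphate turnover, export and reception, 1 was higher and 1 lower past the adjusted p, with a median of 0.19. The deposited values gave 2 higher and 1 lower, median scaling 2 and 2, and trimmed mean scaling 3 and 1. Plpp3, a lipid phosphatase that acts on sphingosine-1-phosphate and lysophosphatidic acid, had log2 levels of 11.27, 11.35 and 11.29 in XX and of 10.10, 10.17 and 10.20 in XY. The arrays within each group nearly coincided, and it fell by 1.15 ± 0.13 (SE, adjusted p = 0.00532), in all 18 alternatives (adjusted p at most 0.0471). Sgpp1, a phosphatase specific for sphingosine-1-phosphate, had a log2 level of 5.09 ± 0.08 in XX and 6.03 ± 0.45 in XY oocytes (SD, n = 3 each), a difference of 0.94 ± 0.23 (SE, limma's adjusted p = 0.0415). It was at or above the median on 0 of 3 XX arrays and on all 3 XY arrays, so it was tested only because it was higher in XY, and its p is no independent support. It was past the threshold in 7 of 14 alternatives that tested it and missed without XX 1 (0.0570), XX 2 (0.0958) or XX 3 (0.105). Sgpp1 also missed with no filter (adjusted p = 0.0781), the intensity trend (0.0569), the replicate block (0.0825) and the Actb covariate (0.221).

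**Figure D4:**
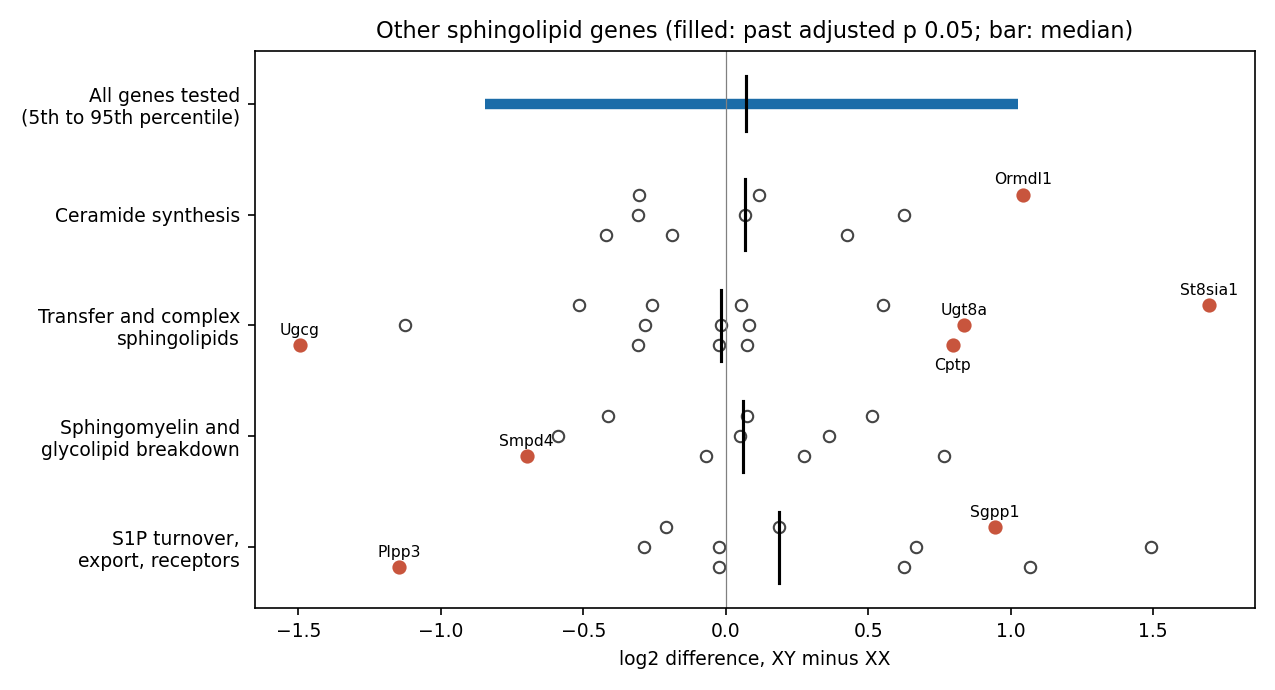
Log2 difference, XY minus XX, of 45 tested sphingolipid genes outside the 10 members in 4 lists, filled and named where past an adjusted p of 0.05, with the median of each list as a bar and the 5th to 95th percentile of all 12442 genes in blue. List medians lie between -0.02 and 0.19, with Ugcg (-1.49) and St8sia1 (1.70) at the ends.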

How the data were processed

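Each of 6 arrays, 3 XX and 3 XY, measured RNA of 10 oocytes. The authors deposited 1 intensity per probe set on a linear scale; MAS5 is the only tool named, per the submitters' processing notes, and the sources used here give no version, target intensity or detection call. Trimmed means ran from 194 to 332 between arrays. The 64 control probe sets were set aside. Gene symbols came from the platform annotation: 932 of 45037 probe sets had several symbols, 9160 none listed and 34945 exactly 1, of which 34741 matched the RefSeq mouse gene table (GRCm38.p6) by gene ID.

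In R 4.3.3 with limma 3.58.1, intensities were quantile normalized, 9 (the 25th percentile of all values) was added and log2 taken. Quantile normalization hides any change in total mRNA. Probe sets at or above the array median on at least 3 of 6 arrays were kept (22997), and the brightest stood for its gene (12442 genes). The groups were compared with limma's moderated test (lmFit, eBayes), adjusted after Benjamini and Hochberg over all genes tested. Member probe sets were fitted over all 45037. The labels call the arrays biological replicates, and 3 per group limits precision. Of these steps, only limma's fit and the adjustment of p were tested on simulated data, drawn as log2 levels per gene. Normalization, the addition of 9, the filter and the choice of probe set were not part of the simulation.

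The members and lists were chosen with earlier results of these data known. The genes named are the members, every list gene past the adjusted p and the 2 with the smallest p in each list, and the 5 genes nearest to the member with the largest difference. Alternatives changed the scaling, the pseudocount, the dim filter, how probe sets were joined, the variance trend, the array weights, a replicate block, the Actb ratio as a covariate, and the arrays, each left out in turn. Leaving out each array over a fixed set of genes was added after seeing the data.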

Additional observations from a re-analysis of the deposited data

How the results depend on the processing

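The count of 1643 genes past the adjusted p became 1001 with the deposited values, 913 with no filter, 3264 with array weights, 679 with the replicate block, 236 with the Actb ratio as a covariate, and 472 to 3307 when 1 array was left out, the highest without XX 1. The count of 8 sphingolipid genes outside the members became 5 with no filter, 14 with an intensity trend, 13 with array weights, 2 with the Actb covariate, and 2 to 9 without 1 array; it was 6 with the replicate block. The number of members past it, 2, became 4 with median scaling (Smpd1 and Smpd2 added), 1 with no filter, with the replicate block and with the Actb covariate, where Acer1 was past it and Asah1 was not, and 1 with the 70th percentile filter, where Acer1 was not tested. It stayed 2 with the deposited values and trimmed mean scaling, but with Smpd2 in place of Asah1. Over the alternatives, Smpd2 was past it in 6 of 17 that tested it and Asah1 in 8 of 18. Without 1 array it ran from 0 to 3. Without an XY array the filter dropped Acer1, which is above the median on 3 arrays alone; with the genes kept over 6 arrays, an alternative chosen after seeing the data, the number was 3 without XX 1, where Acer2 and Asah1 joined Acer1, 2 without XX 2, where Smpd2 joined it, and 1, Acer1, without XX 3 or any XY array; Asah1 was thus past it in 1 of these 6 fits. Acer1, Acer3, Asah1, Smpd1, Smpd2 and Cers5 kept their sign in all 18 alternatives. No pairing by replicate number was seen: same-numbered deviations from the group means correlated at -0.10, 0.00 and -0.04 over genes. Of 6 arrays, 0 correlated best with their own number. With 3 arrays per group this cannot settle whether samples were paired, and the labels do not say. Sphk1 and the second probe sets of Acer1 and Acer2 lay below the median on every array, where the added 9 compresses differences, so a fall or a small change there would be hard to see.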
